A study of Mus musculus with 2 samples.

Results

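Serpins are a superfamily of proteins that share a common fold. Most inhibit serine proteases by offering an exposed loop as bait, which the protease cuts and by which it is then trapped. They are sorted into clades by sequence. In mouse, clade A holds secreted antitrypsin-like and antichymotrypsin-like inhibitors and hormone carriers, clade B holds inhibitors that mostly stay inside the cell, and clades C to I hold regulators of clotting, plasminogen activation and complement as well as members that inhibit nothing, such as the collagen chaperone Serpinh1. In early embryos and their cell cultures, plasminogen activators and their serpin inhibitors are known from trophoblast, parietal endoderm and fibroblasts.

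The family was taken here as every gene whose symbol is Serpin followed by a clade letter and digits, without symbols that carry the pseudogene suffix -ps. A RefSeq gene table named 64 such genes, 59 of them had a probe on the array that could be named by its accession, and 30 of these were measured, out of 16062 measured genes. A gene counts as measured where its brightest probe exceeded background clearly in the WT channel of each array, or in the overexpression channel of each. By clade the 30 were 9 of 22 genes of clade A, 14 of 27 of clade B, and 7 of 10 in clades C to I. Serpina3h was kept because its symbol has no suffix, although the table calls it a transcribed pseudogene.

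The study compared mouse embryonic stem cells (ESCs) labelled WT with ESCs labelled HDAC6 overexpression, both of strain B6C3F1 at passage 26. Both were grown on embryonic fibroblasts (feeders) whose division had been stopped with mitomycin C, with 20% serum and LIF at 1000 U/ml, so both RNAs can hold feeder RNA. WT RNA carried Cy3 and overexpression RNA carried Cy5 on each of 2 Agilent arrays, called biological replicates 1 and 2, with no dye swap. How the gene was introduced, and whether the overexpressing cells were 1 clone, is not given in the sources used here. Nothing in the labels says that the RNAs came from separate cultures, so p-values measure the spread between these 2 arrays, which may be technical, and a dye effect cannot be told apart from the groups.

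Between 68.1% and 68.8% of probes were well above background in each channel of each array. Hdac6 had log2 ratios of 0.15 and -0.055 in replicates 1 and 2 (mean 0.046 ± 0.14, SD, limma adjusted p = 0.7), so its probe did not show the labelled difference. Whether that probe reads the introduced sequence is not given in the sources used here, and overexpression below stands for the channel labelled so. Of 10 pluripotency markers, 10 were measured, 4 were called higher and 4 lower, with a median log2 ratio of 0.059. The 22 markers of primitive endoderm, an extra-embryonic lineage, had a median log2 ratio of 2.70, with 21 called higher. All 25 fibroblast markers were measured, and 23 were called higher.

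All ratios below are log2 of overexpression over WT, averaged over the arrays with the SD (n = 2 throughout). A call is a limma adjusted p under 0.05 over all measured genes. That rule called 56.6% of all genes, 22.2% higher and 34.5% lower (39.1% of calls higher, or 50.3% with median centring in place of loess). Signals are log2 intensities of a gene's brightest probe after normalization. They serve to compare channels for 1 gene, not genes with each other. In bulk RNA, fewer cells of a type and less RNA per cell cannot be told apart.

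Serpin genes were mostly higher in the overexpression channel. Of the 30 measured members, 17 were called higher (56.7%) and 4 lower (13.3%), and 9 were not called. The median ratio was 0.53, against -0.074 over all genes. Signals of the channels did not overlap between arrays for 20 members with overexpression on top and for 4 with WT on top, where all genes had 32.1% and 47.3%. Of the 17, 3 (Serpinb10, Serpinb9e and Serpinb9f) passed the background filter only through the overexpression channel, a filter that by itself favours a higher call. With a filter on both channels, 14 of 27 were higher and 4 lower.

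The sizes were mostly moderate. Only Serpina3f and Serpinb6d reached 2-fold higher values on each array, a rule met by 1.79% of all genes, and only Serpina3m and Serpini1 were at least 2-fold lower, met by 2.83%. The count of 2 higher members depended on the array, with 2 by replicate 1 alone and 8 by replicate 2 alone. Agilent's processed signals gave 5, median centring in place of loess gave 6, and the mean over a gene's probes gave 1. The count over all genes, 287, moved as well, to 487, 513 and 262 in that order. In the authors' deposited p-values from the error model of the scanner software, 17 of the 30 members were under 0.05 on both arrays, 15 of them higher and 2 lower. Over all genes whose probe had 1 spot, 29.4% met that rule, 11.5% higher and 17.9% lower.

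**Figure D1:**
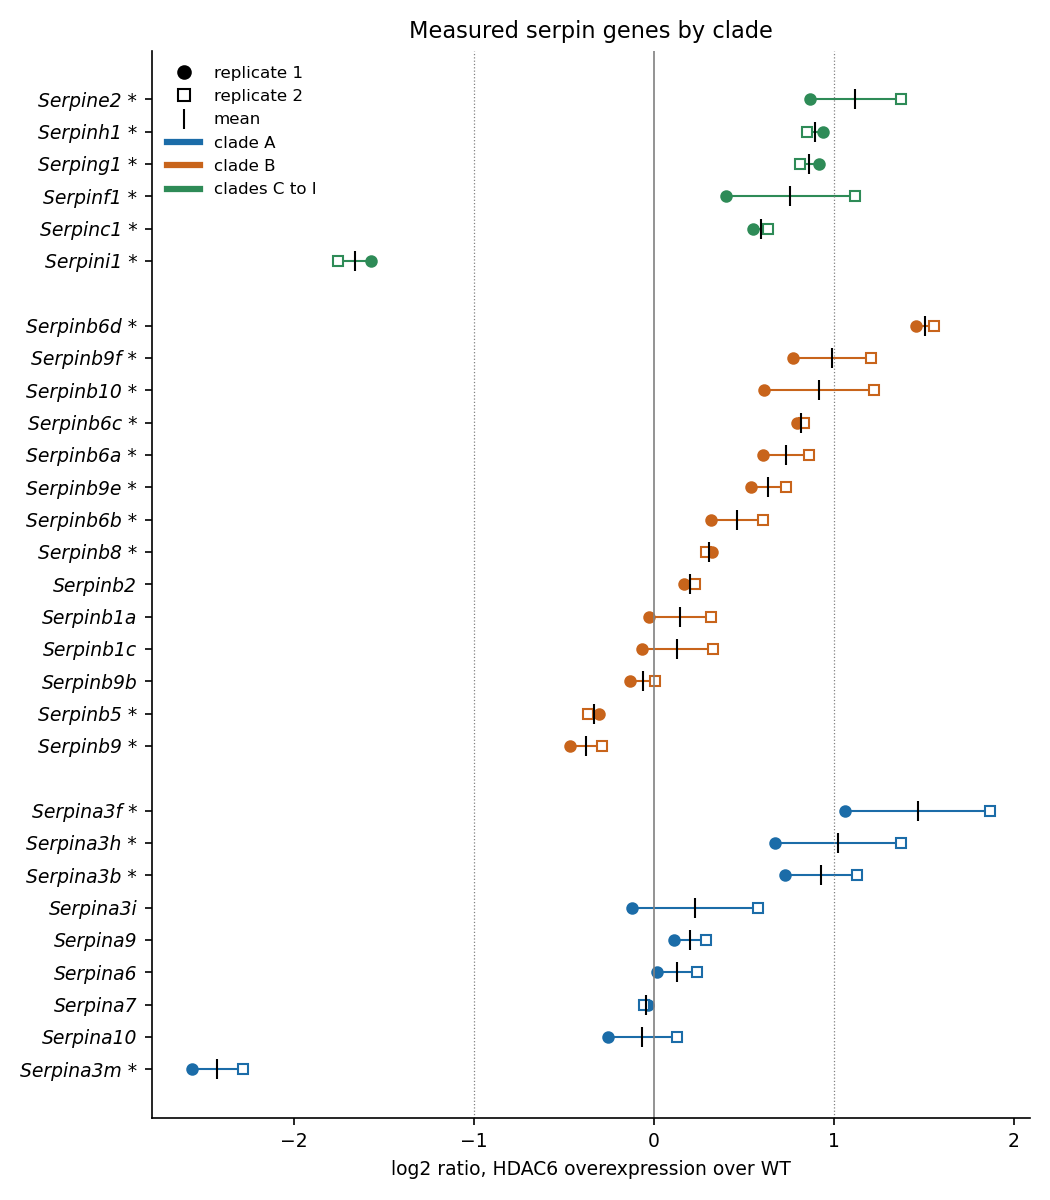
Log2 ratio of overexpression over WT for 29 of the 30 measured serpin genes, by clade. Filled circles are replicate 1, open squares replicate 2, vertical ticks the mean, dotted lines a 2-fold difference, and asterisks mark calls at a limma adjusted p under 0.05. In clades C to I, 5 of the 6 genes drawn lie to the right of 0, and Serpina3m and Serpini1 are the only genes beyond a 2-fold fall.

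Of 9 measured members of clade A, 3 were called higher (33.3%) and 1 lower (11.1%), against 22.2% and 34.5% of all genes. The 4 called members were Serpina3 genes. The clade median was 0.20, or 0.015 by replicate 1 alone. The Serpina3 genes are a mouse-expanded row of antichymotrypsin-like inhibitors on chromosome 12. Of 5 measured, 3 were called higher and 1 lower. Serpina10, Serpina6, Serpina7 and Serpina9 were the other 4 measured members, and 0 were called by limma, with ratios from -0.064 to 0.20. They encode the protein Z-dependent inhibitor of factor X, the corticosteroid and thyroxine carriers, and a serpin known from germinal centre B cells.

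Serpina3m, a contrapsin-like member, had the largest fall among measured members. Its WT signals were 13.28 and 13.22 in replicates 1 and 2, and its overexpression signals 10.71 and 10.94. The channels were far apart, a fall of 5.37-fold (-2.43 ± 0.20, limma adjusted p = 1.2e-07).

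Serpina3f, which sits a few genes away in the same row, moved the other way. Its WT signals were 12.87 and 12.60 and its overexpression signals 13.93 and 14.47. The channels did not overlap, at a rise of 2.76-fold (1.47 ± 0.57, limma adjusted p = 3.9e-05). Its ratios were 1.06 and 1.87, so the arrays differed in size, and its other probe had 0.80 and 1.76.

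Its neighbour Serpina3h had WT signals of 11.34 and 11.12 against 12.01 and 12.49 with overexpression (1.02 ± 0.50, limma adjusted p = 2.2e-04). Serpina3b had 9.78 and 9.48 against 10.52 and 10.61 (0.93 ± 0.28, limma adjusted p = 7.0e-05). Both were higher on each array, with the larger ratio in replicate 2.

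Serpina3i did not pass the test, and its probes disagreed. Its brightest probe had ratios of -0.12 and 0.58 (0.23 ± 0.49, limma adjusted p = 0.20), and the other had -0.78 and -0.85. The mean over both probes was -0.29 and was called lower (limma adjusted p = 0.029). Serpina3 genes are close copies of one another, so a probe named for one may also read its neighbours, and Serpina3g, which lies between Serpina3f and Serpina3h, had no probe named here and was not analysed. Which copy gave the signal was not tested.

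Serpina3 genes have known interferon-inducible members, so the promoter windows of this row were searched for the STAT site TTCNNNGAA. Windows run from 250 bases before to 50 after a gene's start, from RefSeq on GRCm38.p6. They were found for 49 of the 59 members with a probe (58 windows), and not for Serpina3m or Serpina3h, for example. Serpina3f, Serpina3g and Serpina3i each held 1 match, 121, 33 and 102 bases before the start, on the plus strand at chr12:104214408-104214446, chr12:104236099-104236137 and chr12:104263005-104263043. They are shown with 15 bases on each side and the match in capitals. Serpina3f was called higher and Serpina3i was not called, and a role of the letters was not tested.
Serpina3f: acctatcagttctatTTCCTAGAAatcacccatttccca
Serpina3g: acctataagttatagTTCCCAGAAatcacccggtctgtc
Serpina3i: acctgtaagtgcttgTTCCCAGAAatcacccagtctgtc

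The site, read on both strands, was present in 10 of the 58 serpin windows (17.2%), from 7 genes, and in 8.3% of all 32851 windows. Besides Serpina3f and Serpina3i, the measured genes with it were Serpinb2 and Serpinb6a. Motifs other than this site and those given below were searched too, and not all were more frequent in serpin windows. An ISRE-like interferon site was in 5.17% of serpin windows and 3.44% of all windows. The A form of a Gata factor site was in 19.0% and 11.2%, and the T form in 6.9% and 9.05%. A heat shock element was in 0.0% and 0.603%. A match describes letters and shows no binding. Of 17 measured genes on the interferon response list, 12 were called lower (70.6%) and 2 higher (11.8%), with a median ratio of -1.42. Over all genes 34.5% were lower and 22.2% higher. Serpina3m was lower as well, and Serpina3f, Serpina3h and Serpina3b were higher.

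**Figure D2:**
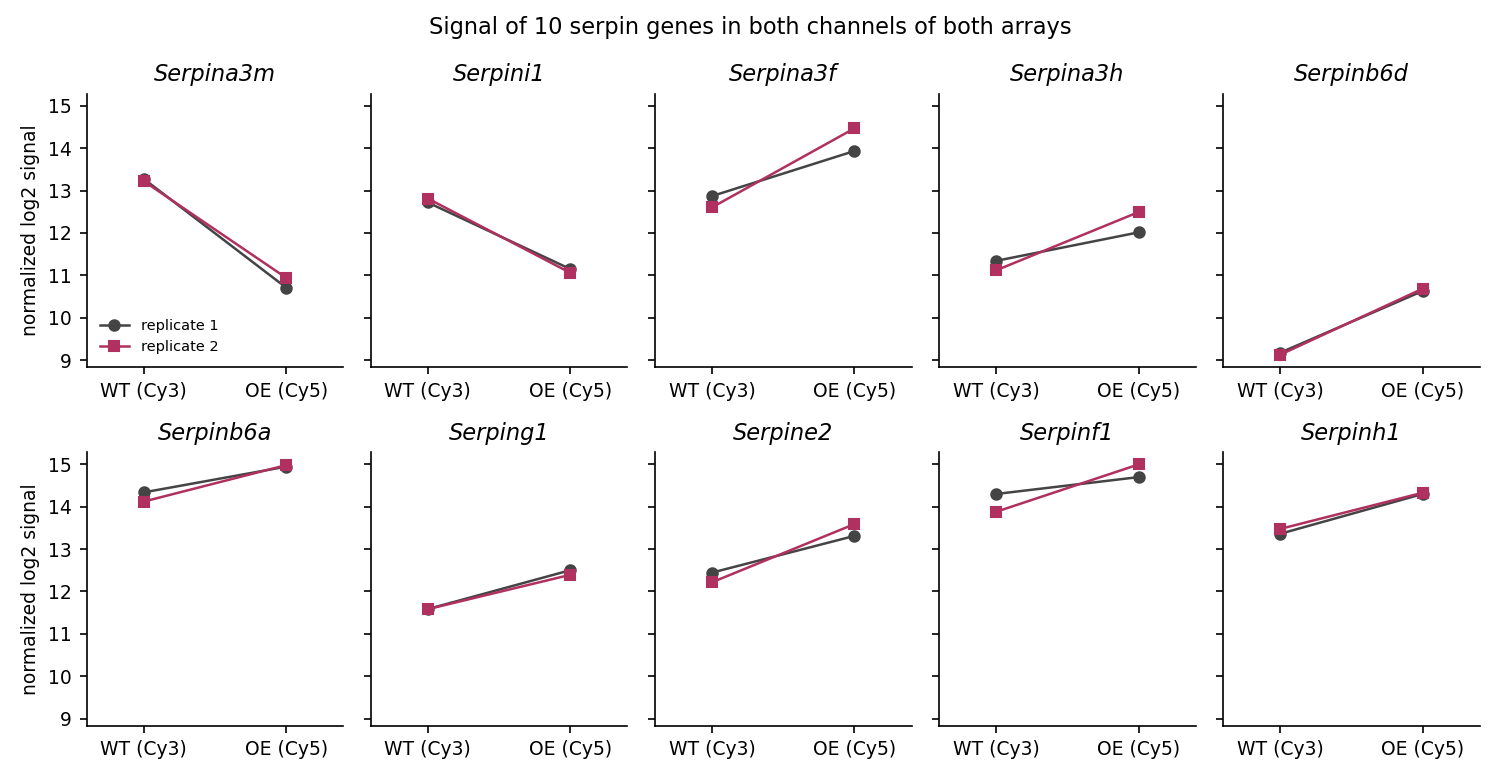
Normalized log2 signal of 10 serpin genes in the WT (Cy3) and overexpression (OE, Cy5) channels, with 1 line per array. Serpina3m and Serpini1 fall on both arrays, the other 8 rise on both, and the lines of replicates 1 and 2 have nearly the same slope for Serpinb6d and Serpinh1 but not for Serpinf1.

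Clade B genes, the intracellular serpins, were called higher in 8 of 14 measured members (57.1%) and lower in 2 (14.3%). All genes had 22.2% and 34.5%. The clade median was 0.38. Without Serpinb10, Serpinb9e and Serpinb9f, which passed the filter only through the overexpression channel, 5 of 11 were higher and 2 lower, with a median of 0.20. The Serpinb6 genes rose together: 4 of 4 measured were called. Serpinb6a, which encodes an inhibitor of cathepsin G and related proteases, had WT signals of 14.34 and 14.12 against 14.94 and 14.98 with overexpression (0.73 ± 0.18, limma adjusted p = 1.5e-04). Serpinb6c had 13.95 and 13.99 against 14.75 and 14.82 (0.81 ± 0.027, limma adjusted p = 4.4e-05), and its other probe had a ratio of 0.90. These paralogues are similar in sequence, and whether their probes read each other was not tested.

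Serpinb6d had the largest mean rise, within the spread of that of Serpina3f. Its WT signals were 9.18 and 9.13 and its overexpression signals 10.63 and 10.69, a rise of 2.84-fold (1.51 ± 0.072, limma adjusted p = 1.2e-06). The arrays gave nearly the same value. Serpinb6b had a ratio of 0.46 ± 0.21 (limma adjusted p = 0.0031).

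Serpinb9 relatives, named for the granzyme B inhibitor, went both ways. Serpinb9 itself fell (-0.38 ± 0.12, limma adjusted p = 0.0061), with 8.78 and 8.96 in WT against 8.32 and 8.67. Serpinb9f was not well above background in WT and was at least 1.93-fold higher (limma adjusted p = 5.8e-05), over mean signals of 7.12 in WT and 8.12 with overexpression. Such a value divides the mean of the brighter channel by a floor. On each array the floor is the dim probe's own signal or, if higher, the lowest signal of any probe well above background. The value averages the arrays and is not a strict lower bound. Without a dye swap it can carry dye bias. Serpinb9e, above background in WT on 1 array, had 0.64 ± 0.14 (limma adjusted p = 3.0e-04), while its dimmer probe had 0.049. Its ratio ran from 0.34 with the mean over probes to 1.44 with Agilent's processed signals. Serpinb9b did not pass, at -0.062 ± 0.097.

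Among other clade B genes, Serpinb10, which encodes bomapin of blood cell precursors, was not well above background in WT. Its ratios were 0.61 and 1.23 (limma adjusted p = 2.6e-04), with mean signals of 7.37 and 8.29. The rise of 1.89-fold is its plain mean ratio, since its WT signals lay above the floors. Agilent's processed signals gave Serpinb10 a log2 ratio of 2.02. Serpinb8, an inhibitor of furin-like proteases in the test tube, had WT signals of 14.85 and 14.79 against 15.17 and 15.08 (0.31 ± 0.025, limma adjusted p = 0.014). Its call was lost with Agilent's processed signals, at 0.19 (limma adjusted p = 0.13), and median centring gave 0.86 (1.6e-05 to 0.13 over 10 alternatives). Serpinb5, which encodes the epithelial protein maspin, fell (-0.33 ± 0.042, limma adjusted p = 0.0093). The leukocyte elastase inhibitor genes Serpinb1a and Serpinb1c, and Serpinb2 had ratios from 0.13 to 0.20 and were not called.

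The clade B genes lie in 2 clusters, on chromosomes 1 and 13, and these differ in their promoter letters. The AP-1 site TGANTCA was present, on either strand, in windows of 7 of 11 clade B genes on chromosome 1 and of 0 of 14 on chromosome 13. These are counts of genes, and a gene can have several windows. Counted by window, the share was 19.0% of the 58 serpin windows and 7.81% of all windows. Of the 7 genes, 4 were measured (Serpinb5, Serpinb2, Serpinb10 and Serpinb8), and their ratios ran from -0.33 to 0.92. Their sites are shown in gene order with the match in capitals, at chr1:106861020-106861056, chr1:107511314-107511350, chr1:107528934-107528970 and chr1:107589968-107590004, plus strand. Serpinb8 holds 2 matches, of which 1 is shown. Of these 4 genes, 2 were called higher, 1 lower and 1 not called, and a role of the letters was not tested.
Serpinb5: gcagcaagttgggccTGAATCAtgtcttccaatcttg
Serpinb2: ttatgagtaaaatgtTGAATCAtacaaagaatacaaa
Serpinb10: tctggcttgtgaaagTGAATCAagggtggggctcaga
Serpinb8: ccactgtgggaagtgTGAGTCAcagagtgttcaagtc

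**Figure D3:**
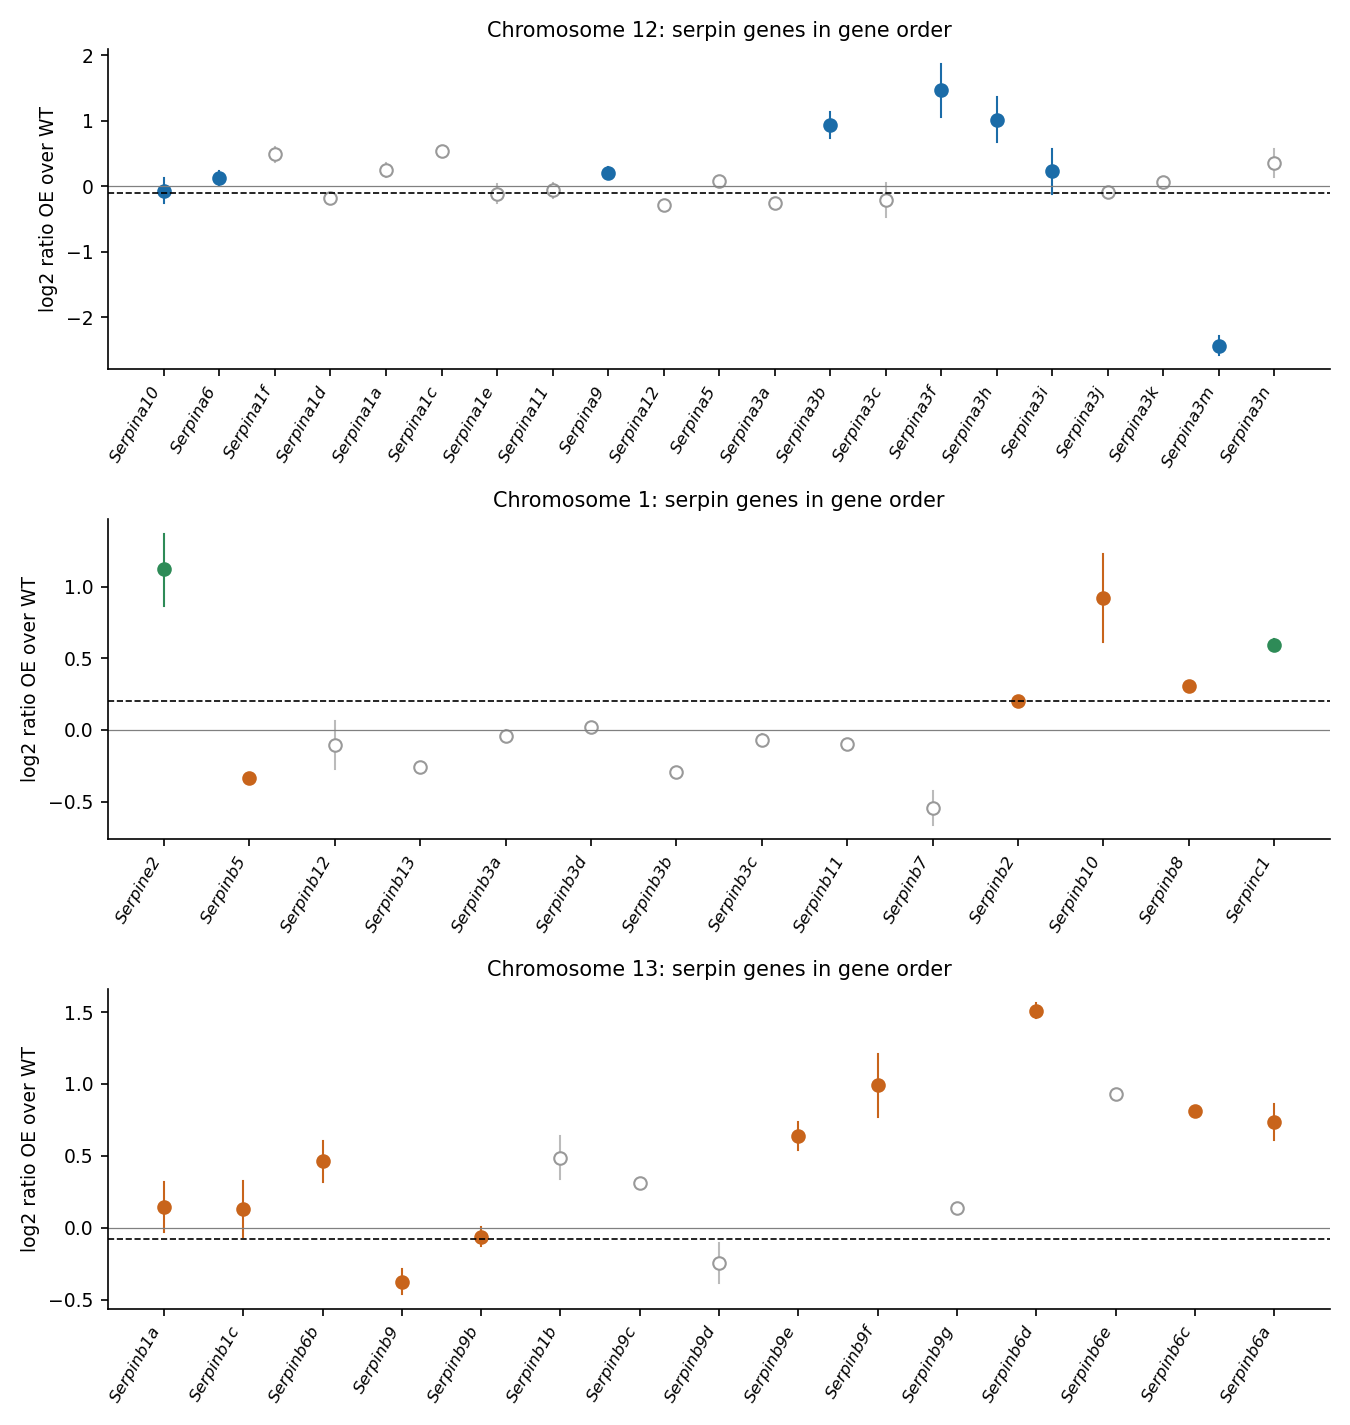
Mean log2 ratio of serpin genes with a probe in their order along chromosomes 12, 1 and 13, with vertical lines joining the 2 arrays. Filled circles are measured genes (blue clade A, orange clade B, green clades C to I), open grey circles genes that were not measured, and the dashed line is the median of the other genes on that chromosome. Most genes of the chromosome 12 and chromosome 1 rows are open, and Serpina3f and Serpina3m lie on opposite sides of the line.

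All 7 measured members of clades C to I were called, 6 higher (85.7%) and 1 lower (14.3%), with a median ratio of 0.76. Among all genes 56.6% were called, 22.2% higher and 34.5% lower. Regulators of clotting and complement were among the 6 members that rose, and 6 of the 7 are described here. Serpine2, which encodes protease nexin-1, an inhibitor of thrombin and urokinase, had WT signals of 12.44 and 12.22 against 13.31 and 13.59 with overexpression (1.12 ± 0.36, limma adjusted p = 4.1e-05). Its lowest overexpression signal lay above its highest WT signal.

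Serpinc1, the gene of antithrombin, had 8.45 and 8.53 in WT against 8.997 and 9.16 (0.59 ± 0.058, limma adjusted p = 3.4e-04). Serping1, the gene of the complement C1 inhibitor, had 11.59 and 11.58 against 12.50 and 12.39 (0.86 ± 0.075, limma adjusted p = 3.4e-05), and its other probe had 0.74. Both differed by far more than their arrays did.

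The members of these clades that are not protease inhibitors rose as well. Serpinh1 encodes HSP47, which binds and helps fold collagen in the endoplasmic reticulum. Its WT signals were 13.36 and 13.48 against 14.30 and 14.33 (0.90 ± 0.061, limma adjusted p = 2.6e-05). Serpinf1, which encodes the secreted anti-angiogenic factor PEDF, had 14.30 and 13.88 against 14.70 and 14.997 (0.76 ± 0.51, limma adjusted p = 0.0015). Its ratios were 0.40 and 1.12, and its other probe had 0.52 and 1.55, so the arrays gave the direction but not the size.

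Serpini1 was the only member of these clades that fell. It encodes neuroserpin, an inhibitor of tissue plasminogen activator in the nervous system. Its WT signals were 12.72 and 12.81 against 11.15 and 11.06, a fall of 3.17-fold (-1.66 ± 0.13, limma adjusted p = 8.5e-07), and its other probe had -1.66 as well. Plat, the gene of tissue plasminogen activator itself, rose (1.23 ± 0.053, limma adjusted p = 4.2e-06), with 12.10 and 12.22 in WT against 13.29 and 13.48.

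The promoters of Serpini1 and Serpine2, which moved in opposite directions, are both rich in CpG for this family. Their windows lie at chr3:75557243-75557542 (plus strand) and chr1:79858616-79858915 (minus strand) and are shown with CpG in capitals, 15 in Serpini1 and 41 in Serpine2.
Serpini1: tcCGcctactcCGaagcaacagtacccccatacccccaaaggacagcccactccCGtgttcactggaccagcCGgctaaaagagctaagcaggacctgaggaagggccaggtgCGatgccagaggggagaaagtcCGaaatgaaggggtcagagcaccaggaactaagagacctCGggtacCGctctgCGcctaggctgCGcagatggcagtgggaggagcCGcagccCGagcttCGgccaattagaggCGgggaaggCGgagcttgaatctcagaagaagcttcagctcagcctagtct
Serpine2: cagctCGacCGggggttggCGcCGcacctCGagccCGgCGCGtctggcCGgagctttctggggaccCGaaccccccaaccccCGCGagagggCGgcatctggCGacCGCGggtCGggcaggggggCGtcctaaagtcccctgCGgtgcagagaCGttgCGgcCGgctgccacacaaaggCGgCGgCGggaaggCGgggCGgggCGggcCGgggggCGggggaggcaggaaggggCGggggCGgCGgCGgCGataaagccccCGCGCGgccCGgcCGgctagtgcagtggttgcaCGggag

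Most serpin promoters hold few CpG. Taking each gene's richest window, the median was 3 over the 49 members with one, against 8 over all genes with a window. It was 4 for the 22 measured serpins, against 20 over all measured genes, and 3 for the 27 that were not measured. At least 10 CpG were found in 5 of the 22 (22.7%), namely Serpine2, Serpinb6a, Serpinh1, Serpini1 and Serpinb6c, and in 1 of the 27 (3.7%). The share was 76.1% over all measured genes with a window. As a description, the 5 measured serpins hold 4 of 14 called higher (28.6%) and 1 of 3 called lower (33.3%) among those with a window. The letters TATAAA were present in 31.0% of serpin windows, against 13.6% of all windows.

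By chromosome, serpin medians lay above those of the other genes in most cases, by amounts that varied with the processing. On chromosome 13 the 10 measured serpins had a median ratio of 0.55 and the other genes -0.080, and with both channels above background the serpin median was 0.30. On chromosome 12 the 8 serpins had 0.22 and the others -0.11, but the serpin median was 0.065 by replicate 1 alone, 0.43 by replicate 2 alone and 0.043 with the mean over probes. On chromosome 1 the 6 serpins had 0.45 and the others 0.20. Of those other genes 45.6% were called higher and 14.0% lower, against 22.2% and 34.5% of all genes. With no filter on dim probes the chromosome 1 serpin median was -0.055. Genes of chromosome 11 were mostly lower (69.1% called lower, median -0.48), and Serpinf1, at 0.76, was called higher there. Single members on chromosomes 2 and 7 (Serping1 and Serpinh1) lay above chromosome medians of -0.077 and -0.056, and Serpini1 on chromosome 3 lay below one of -0.058.

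**Figure D4:**
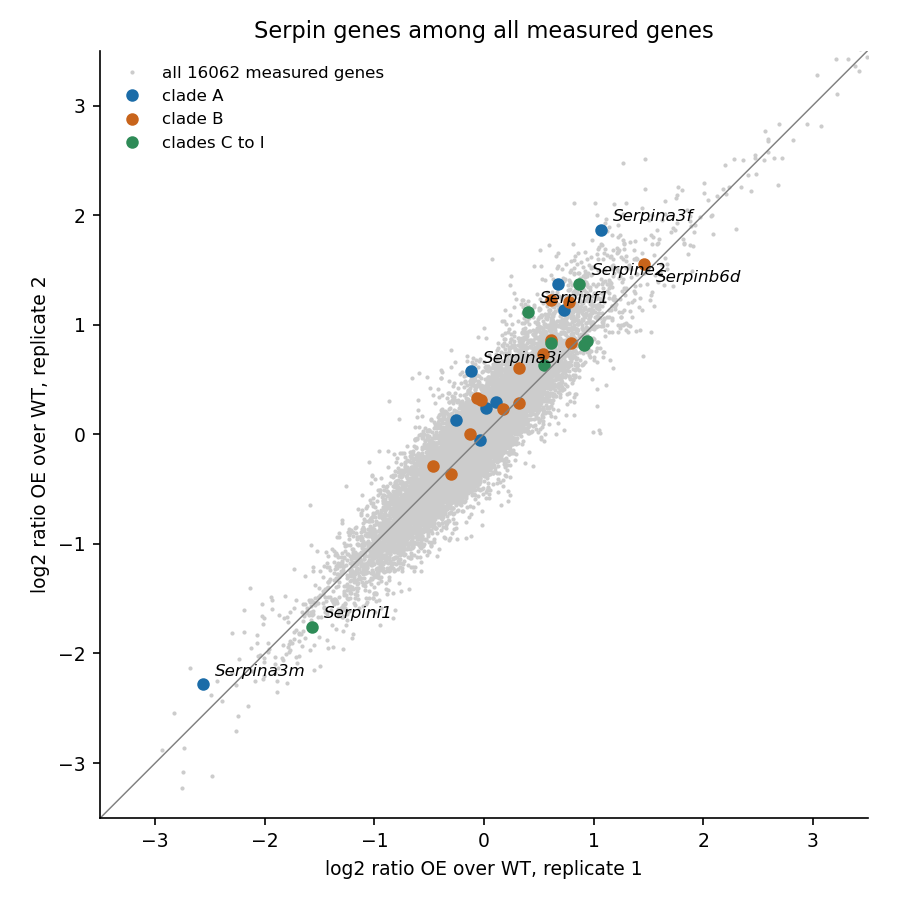
Log2 ratio of overexpression over WT in replicate 1 (horizontal) against replicate 2 (vertical) for all 16062 measured genes (grey) and the serpins by clade. The grey line marks equal ratios, and 24 genes lie beyond the axis limits of 3.5. Serpina3f, Serpinf1 and Serpina3i sit above the line, that is, with a larger ratio in replicate 2.

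The arrays differed in how large the rises were. Replicate 2 gave the higher ratio for 24 of 30 serpins (80.0%), against 52.3% of all genes. The gap was largest for Serpina3f (0.80), Serpinf1 (0.72), Serpina3i (0.70) and Serpina3h (0.70), and was -0.086 for Serpinh1 and -0.11 for Serping1. The median gap over the serpins was 0.23. Fibroblast markers leaned the same way: 25 of 25 were higher in replicate 2, with a median gap of 0.51. Their summed signals were 289700 and 244100 in WT against 519600 and 631900 with overexpression in replicates 1 and 2. Such sums weigh the brightest probes most and serve only to compare channels within 1 list. Of the 25, 0 were at background in every channel. Primitive endoderm markers had a median gap of -0.067 and summed signals of 78870 and 83240 against 374000 and 366000. Trophectoderm markers (9 of 12 called higher, median 0.46) had sums of 98130 and 97680 against 135000 and 134800, with Elf5, Prl3d1 and Tpbpa not above background. The part of feeder, endoderm or trophoblast RNA in the serpin values was not tested.

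Genes that work with serpins were listed by role. Of 36 target proteases, 26 were measured, 13 higher and 6 lower (median 0.30). Ctsh, a lysosomal cathepsin gene, rose most in the list (4.06 ± 0.11, limma adjusted p = 1.6e-09). Whether its product is a target of the measured serpins was not tested. Plat and Htra1, a secreted serine protease gene (1.204 ± 0.11, limma adjusted p = 5.5e-06), followed, and Hpn, the gene of the membrane protease hepsin, fell (-0.995 ± 0.27, limma adjusted p = 4.2e-05). The other plasminogen activator gene, Plau, had 0.98 ± 0.22 (limma adjusted p = 3.3e-05), so both activators rose.

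Of 15 receptors and cofactors, 11 were higher (73.3%) and 1 lower (6.67%), against 22.2% and 34.5% of all genes (median 0.68). Lrp2, an endocytic receptor gene that is also on the endoderm list, had 1.81 ± 0.13 (limma adjusted p = 5.1e-07), and Thbd, the thrombomodulin gene, 1.31 ± 0.036 (limma adjusted p = 3.0e-06). The syndecan genes Sdc3 and Sdc4 had 1.19 ± 0.36 and 1.104 ± 0.088. Vtn, the gene of the adhesion protein vitronectin, was not well above background with overexpression, with ratios of -0.71 and -0.80 (limma adjusted p = 7.3e-05). The fall was 1.69-fold by its own signals (means 7.95 and 7.19), or 1.465-fold with the higher floor.

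Of 31 other protease inhibitors, 25 were measured, with a median of 0.088. They were higher in 10 cases (40.0%) and lower in 5 (20.0%), against 22.2% and 34.5% of all genes. Spink1, a trypsin inhibitor gene, rose most (4.20 ± 0.26, limma adjusted p = 3.3e-09). The metalloprotease inhibitor genes Timp2 and Timp3 had 1.18 ± 0.39 and 1.07 ± 0.497, and Itih2 0.96 ± 0.27. Of 14 collagen genes, whose chains Serpinh1 helps fold, 13 were measured, 10 higher (76.9%) and 1 lower (7.69%), with a median of 1.09. The basement membrane genes Col4a1 and Col4a2 led, at 2.76 ± 0.094 and 2.33 ± 0.18, followed by Col1a2 (1.75 ± 0.44) and Col6a2 (1.17 ± 0.498). The collagen list shares 7 genes with the fibroblast list and 2 with the endoderm list.

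**Figure D5:**
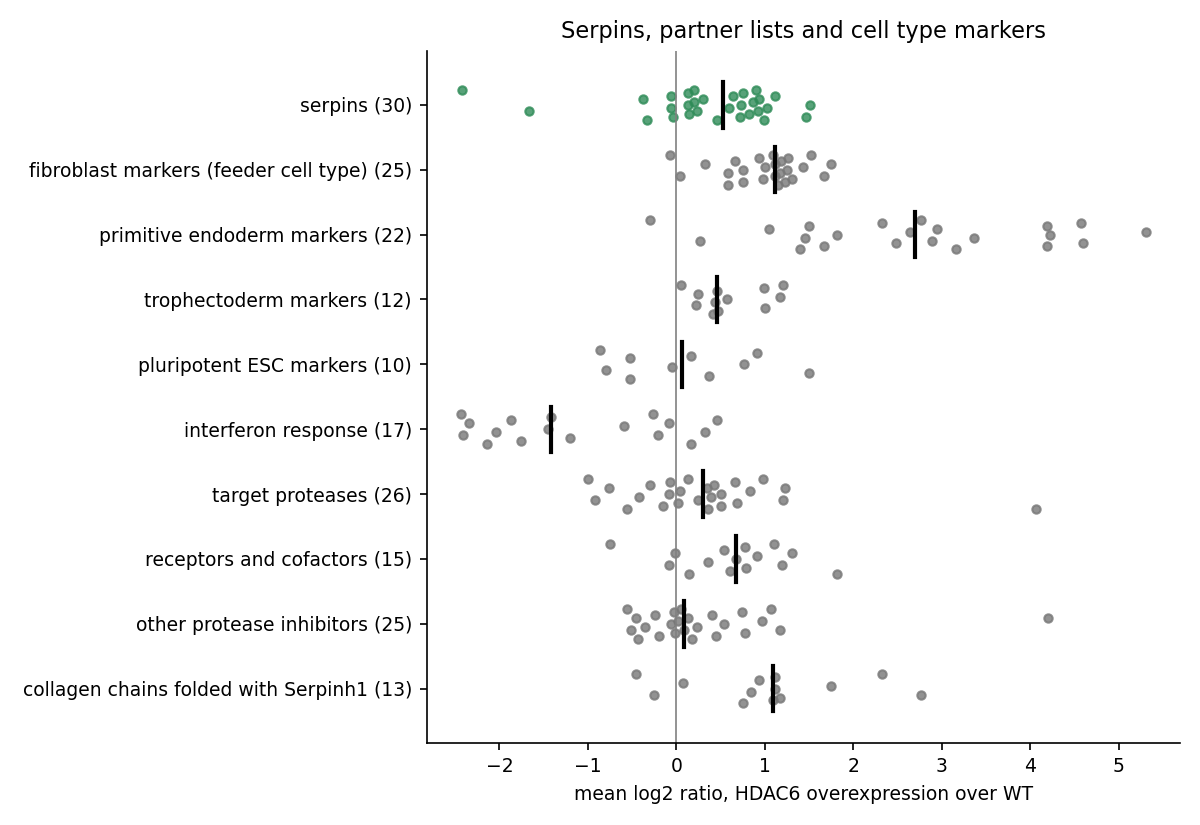
Mean log2 ratio of overexpression over WT for each measured member of the serpins, of 4 partner lists and of 5 marker or response lists, with the number measured in brackets and a black bar at each median. Serpins have a median of 0.53, between the other protease inhibitors at 0.088 and the collagens at 1.09.

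The remaining 29 members with a probe were not measured, 13 in clade A, 13 in clade B, and Serpind1, Serpinf2 and Serpini2. Of these, 25 were not well above background in any channel of either array. They include the named Serpina1 genes, of the alpha-1-antitrypsin group, the Serpinb3 genes of squamous epithelium, and Serpind1, the gene of heparin cofactor II.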

How the data were processed

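Per the file headers, the authors read 2 two-colour arrays with Agilent Feature Extraction 11.5.1.1. The deposited files hold raw median intensity values with no normalization, processed intensity values that are background-subtracted and dye-normalized, their deposited log10 ratio and the authors' p-value. The deposited series table holds log2 values that correlated at -0.9999 and -0.9989 with the scanner ratios (slopes of -1 and -1, column medians -0.0074 and 0.062), so it runs as WT over overexpression. Any further centring of it is unknown.

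From the medians, background was corrected with normexp (offset 50) and arrays were loess-normalized in limma 3.58.1 (R 4.3.3), with control and outlier spots (269 and 313) at weight 0. No spot was saturated. Of 55681 probes, 26762 had 1 symbol through unversioned accessions in a RefSeq table of GRCm38.p6, 0 several and 28919 none. The array grid used another assembly. Ratios against 0 were tested with lmFit and eBayes (8.71 prior and 1 residual degrees of freedom), two-sided, with Benjamini-Hochberg adjustment, after the fit was tested on simulated data. Channel signals were also Aquantile-normalized. With 2 arrays, their number limits precision. Both arrays lie on 1 slide.

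Alternatives covered the background correction, normalization, probe choice, outliers, dim-probe filter, prior, deposited table and single arrays. All serpins entered the counts, and the values of 1 are not reported here. Of the others, those at least 2-fold changed on both arrays, those of clades C to I and the brightest of clades A and B are given in full, with up to 4 called members per partner list. Members and lists were chosen with earlier results of these data known. Other values named were chosen after they were seen.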

Additional observations from a re-analysis of the deposited data

How the results depend on the processing

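Of 21 called serpins, 20 kept direction and call under all 10 alternatives with a test that measured them, and Serpinb8 lost its call with Agilent's processed signals and with the deposited series table (0.185, limma adjusted p = 0.13 in both), where Serpina9 was called (0.323). With the mean over probes, Serpina3i turned to -0.294 and Serpina6 to -0.118. Members at least 2-fold higher on both arrays numbered 2, but 5 with processed signals, 5 with the series table, 6 with median centring, 1 with the mean over probes, and 2 to 8 on single arrays. With no filter on dim probes, 24 of 59 serpins were higher and 10 lower. The clade A median was 0.20, and -0.043 with the mean over probes, 0.071 with no dim filter, 0.32 with processed signals and 0.015 to 0.29 on single arrays. That of chromosome 12, 0.22, was 0.081 with no dim filter. The clade B median was 0.38, and 0.53 with median centring, 0.13 with no dim filter and 0.20 with both channels above background, and that of clades C to I was 1.09 with median centring. The chromosome 1 serpin median of 0.45 became 0.51 (processed signals, and series table), 0.71 (median centring), 0.48 (no background correction), 0.47 (offset 16), -0.055 (no dim filter) and 0.31 (both channels), and that of chromosome 13 was 0.30 with both channels. With both channels 0 receptors and cofactors were lower, since Vtn left the fit, and an intensity trend gave 2 lower collagens. Median centring changed the split of all calls from 39.1% to 50.3% higher (4877 higher and 4811 lower, against 3559 and 5540). Causes were not tested. Single arrays leave no residual degree of freedom and give values only. Each array is already 1 ratio of a WT and an overexpression RNA, so the test is paired by array. No further pairing was possible with 1 group of arrays.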

Other observations

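Among the serpins below the filter, Serpinb6e had ratios of 0.92 and 0.94 (log2, replicates 1 and 2), but was not well above background in either channel. Serpinb7 had -0.43 and -0.66, above background in WT on 1 array only. Serpina5, the gene of protein C inhibitor, and Serpinb11 were above background in both channels of replicate 1 and in neither of replicate 2, with raw WT medians of 456 and 92 for Serpina5 and of 409.5 and 90 for Serpinb11.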
